A study of Mus musculus with 3 samples.

Results

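The 9 genes described here set the balance of phosphate and pyrophosphate or mark bone-type differentiation in soft tissue: Enpp1, Ank, Abcc6, Alpl, Nt5e, Slc20a1, Slc20a2, Runx2 and Spp1. They were chosen by gene symbol, not by a measured value, and all 9 were found once each among the 32285 genes of the tables. Their levels were followed in stromal, smooth muscle and endothelial cells of mouse inguinal fat from 3 genotypes.

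Soft tissue stays free of mineral largely because inorganic pyrophosphate blocks the growth of calcium phosphate crystals. ENPP1 makes pyrophosphate and AMP from ATP outside the cell, ANK and ABCC6 help bring ATP or pyrophosphate out of the cell, ALPL (tissue-nonspecific alkaline phosphatase) breaks pyrophosphate down, and NT5E (CD73) turns the AMP into adenosine, which restrains ALPL. SLC20A1 and SLC20A2 carry phosphate into cells, RUNX2 is the transcription factor that starts the bone programme, and SPP1 (osteopontin) is a secreted phosphoprotein that binds mineral. Matrix Gla protein, encoded by Mgp, is a separate inhibitor of calcification and is the gene removed in the mutants.

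The series held single-cell RNA sequencing of the stromal vascular fraction of inguinal white adipose tissue from mice 4 weeks old, made by 10x Genomics 3' chemistry after CD45+ cells and dead cells had been sorted away, with 1 library of pooled male and female mice per genotype. Wild-type was the control of both mutants. Mgp-KO lacked Mgp in all cells. Pd-KO carried floxed Mgp alleles and a Pdgfra-Cre transgene, which deletes in cells that express, or descend from cells that expressed, Pdgfra, and no library of floxed mice without Cre was analysed here, so effects of Cre or of the floxed allele cannot be told apart from loss of Mgp. Since each genotype was 1 library, no test between genotypes was possible, and every interval given here is an exact 95% interval for counting error alone.

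Of the 9 genes, 1 encodes a transcription factor, RUNX2, whose core DNA motif is AACCACA. That motif, or its reverse complement TGTGGTT, was searched for in the 250 bases before each RefSeq start (build GRCm38.p6). It was present at 3 of the 10 starts listed for 7 of the members, those of Spp1, Slc20a1 and Runx2 itself, against 4.40% of 32851 starts of all genes. The Spp1 window lies at chr5:104434861-104435110 on the plus strand and its motif begins 129 bases before the start. The short stretches around the matches near Slc20a1 (chr2:129198686-129198712, plus strand, motif beginning 77 bases before the start) and Runx2 (chr17:44814692-44814718, minus strand, 81 bases before the start) are shown beside it to compare the flanks. The Runx2 stretch precedes the only RefSeq start listed for that gene. It lies inside the longer GENCODE span of Runx2 (chr17:44495987-44814797) given below. Capitals mark the motif, which is a match of letters and not a measured binding site.
Spp1: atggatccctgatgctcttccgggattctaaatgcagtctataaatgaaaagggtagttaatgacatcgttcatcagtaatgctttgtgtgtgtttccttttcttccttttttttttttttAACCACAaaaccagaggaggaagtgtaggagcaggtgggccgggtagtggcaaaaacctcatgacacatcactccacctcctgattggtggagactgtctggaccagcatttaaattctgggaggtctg
Slc20a1: ccgaccagccTGTGGTTgcgtcacatc
Runx2: tgaggtcacaAACCACAtgattctgtc

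Cells were kept at 2000 or more unique molecular identifiers (UMIs, counted molecules) and at most 10% mitochondrial UMIs, which left 10511 cells in wild-type, 12575 in Mgp-KO and 8819 in Pd-KO, with medians of 12802, 6445 and 8269 UMIs. Between 35 and 40 barcodes were shared by any pair of libraries. Cells were then gated by marker panels: stromal (Pdgfra, Lum, Dpt, Mmp2), smooth muscle or pericyte (Myh11, Rgs5, Notch3, Kcnj8) and endothelial (Pecam1, Cdh5, Cldn5, Emcn, Egfl7). This gave 7583, 11059 and 6919 stromal cells, 698, 136 and 461 smooth muscle cells, and 636, 221 and 663 endothelial cells in wild-type, Mgp-KO and Pd-KO. Most check genes not used for gating followed the gates: Col1a1 and Dcn were highest in stromal cells, Acta2 and Tagln in smooth muscle cells, and Kdr and Flt1 in endothelial cells in all 3 libraries. Pdgfrb, also set as a stromal check gene, did not. It was 90.5, 73.4 and 77.7 CPM in stromal cells against 356, 261 and 591 CPM in smooth muscle cells. Levels are given as CPM, that is per 1000000 UMIs: the UMIs of a gene over the UMIs of all genes in all cells of a gate. Female cells made up 35.1%, 60.6% and 32.5% of kept cells and male cells 35.1%, 14.7% and 39.5%. The rest were assigned no sex.

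Mgp itself stood at 482 CPM in wild-type stromal cells, 0.737 CPM in Mgp-KO and 1.14 CPM in Pd-KO. In endothelial cells it stood at 714 CPM, 0 UMIs and 46.4 CPM, and in smooth muscle cells at 331 CPM, 0 UMIs and 494 CPM. The conditional mutant had thus lost Mgp RNA from stromal cells and kept it in smooth muscle cells. In endothelial cells it also held less Mgp RNA than wild-type, at a log2 ratio of -3.94 (-4.20 to -3.70). Mgp in barcodes of 10 to 100 UMIs, taken as free RNA, was 359, 1.27 and 6.28 CPM.

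The gate with the highest level was the same in all 3 libraries for 8 of the 9 genes. Ank and Slc20a2 were highest in smooth muscle cells, although for Ank the intervals of smooth muscle and endothelial cells overlapped in all 3 libraries, Alpl and Slc20a1 in endothelial cells, with the Slc20a1 interval overlapping those of stromal cells in Mgp-KO and of smooth muscle cells in both mutants, and Abcc6, Runx2 and Spp1 in stromal cells. For Abcc6 the counts of 0 elsewhere allow more than the stromal level in every library, and for Spp1 they do so in Mgp-KO. In Pd-KO the exact interval for 0 Spp1 UMIs in smooth muscle cells also reaches above the stromal level. The gates could not be ordered in these cases. Enpp1 was highest in endothelial cells by so few UMIs that the gates could not be ordered. Nt5e was highest in endothelial cells of wild-type and Pd-KO and in stromal cells of Mgp-KO, but the endothelial interval held the stromal level in Pd-KO (4.31 to 10.6 CPM) and in Mgp-KO (1.36 to 12.8 CPM, on 4 UMIs). The plot of levels by gate and library shows all 27 pairs of gene and gate.

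**Figure D1:**
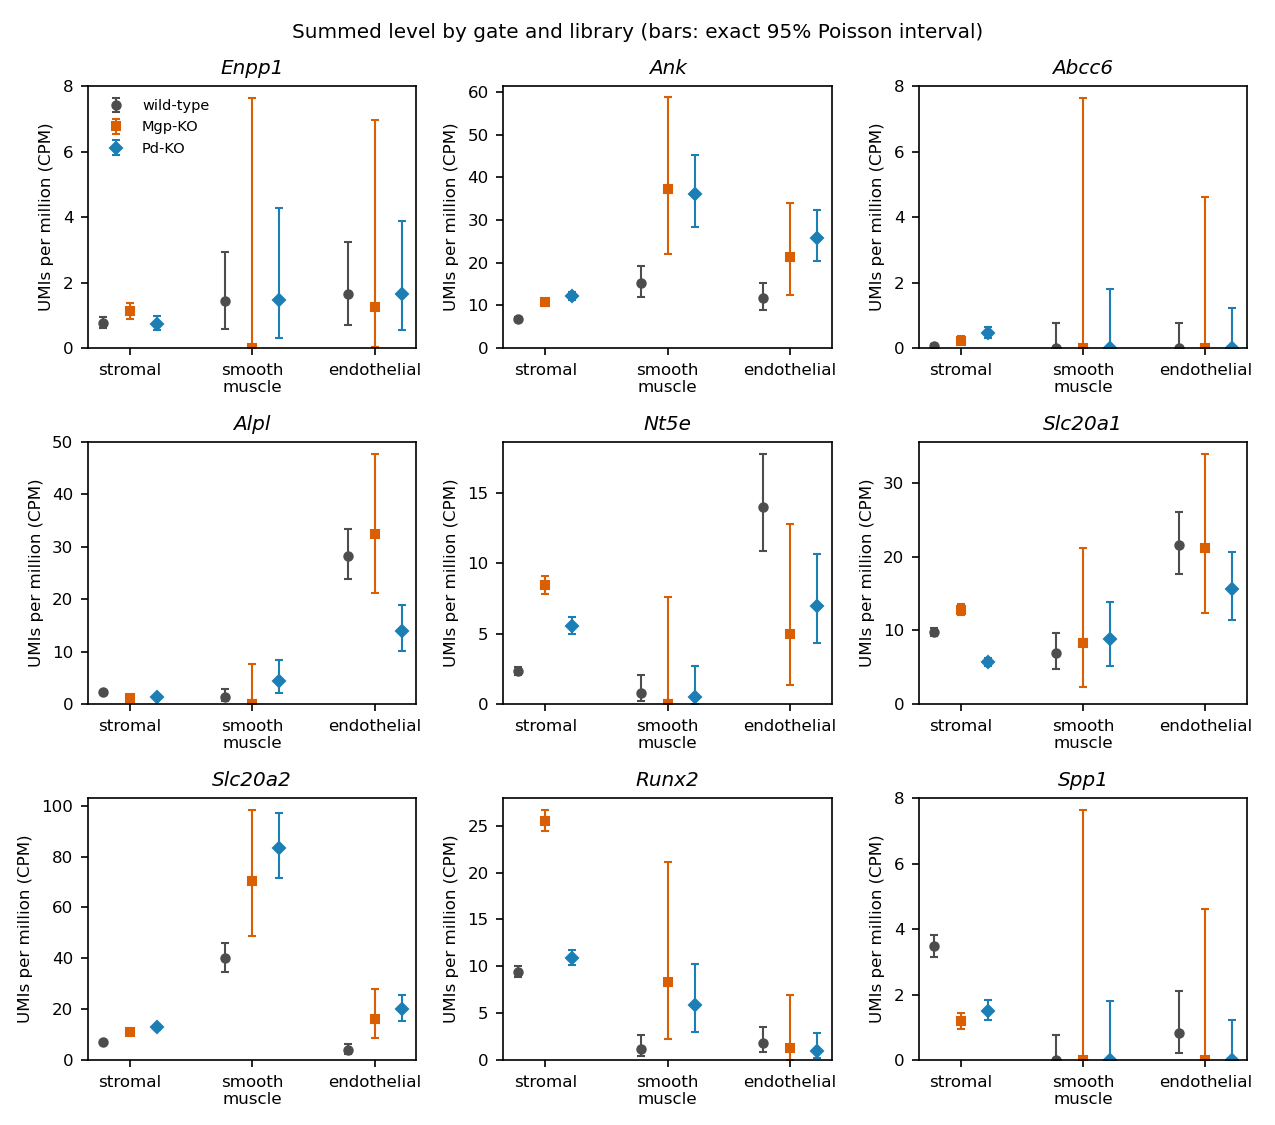
Level of each gene in CPM (y axis) in stromal, smooth muscle and endothelial cells (x axis), with 1 point per library and bars for the exact 95% Poisson interval. Slc20a2 is highest in smooth muscle cells (40.2, 70.3 and 83.5 CPM) and Alpl in endothelial cells (28.3, 32.5 and 13.9 CPM). Intervals are wide for the 136 smooth muscle and 221 endothelial cells of Mgp-KO.

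Between libraries, a gene was called when its level differed by at least 2-fold, the interval of the ratio excluded no change, and the 2 libraries held at least 20 UMIs together. In stromal cells of Mgp-KO over wild-type, 4 of 9 members tested were called, where 27.1% of all 17522 genes tested were. Of these, 3 were higher (background 22.1%) and 1 was lower (4.96%). In smooth muscle cells 1 of 3 was called, and higher (background 10.5%, with 8.26% higher and 2.22% lower). In endothelial cells 2 of 5 were called, 1 of them higher and 1 lower (background 11.5%, with 7.38% higher and 4.11% lower). Pd-KO over wild-type had calls for 3 of 9 members in stromal cells, 2 higher and 1 lower (background 32.0%, with 24.3% higher and 7.75% lower). It had calls for 2 of 3 in smooth muscle cells, both higher (background 24.2%, with 20.0% higher and 4.22% lower), and for 4 of 5 in endothelial cells, 2 higher and 2 lower (background 20.4%, with 16.0% higher and 4.44% lower). Between the mutants, Pd-KO over Mgp-KO had 3 calls of 9 in stromal cells, 1 higher and 2 lower (background 10.5%, with 4.27% higher and 6.26% lower). There were 0 of 3 in smooth muscle cells (background 13.0%, with 9.84% higher and 3.11% lower) and 1 of 5, lower, in endothelial cells (background 7.83%, with 6.13% higher and 1.70% lower). The stromal shares against wild-type lie near their background. The median log2 ratio of the members was 0.63 and 0.21 in stromal cells of Mgp-KO and Pd-KO over wild-type, beside 0.15 and 0.18 for all genes with at least 100 UMIs. Both comparisons use the same wild-type library.

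The length of the gene moved with the ratios over wild-type. The file headers name Cell Ranger 4 for wild-type and 7.1.0 for both mutants, and whether reads in introns were counted is not given in the sources used here. Among stromal cells, the median log2 ratio for Mgp-KO against wild-type was -0.15 for genes spanning under 10 kb and 1.33 for genes over 100 kb. In Pd-KO over wild-type it was -0.26 and 1.57, and in Pd-KO over Mgp-KO -0.09 and 0.24. The running median of genes of like span is therefore given beside many of the ratios below. Genotype, processing version and library cannot be told apart in the comparisons with wild-type.

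**Figure D2:**
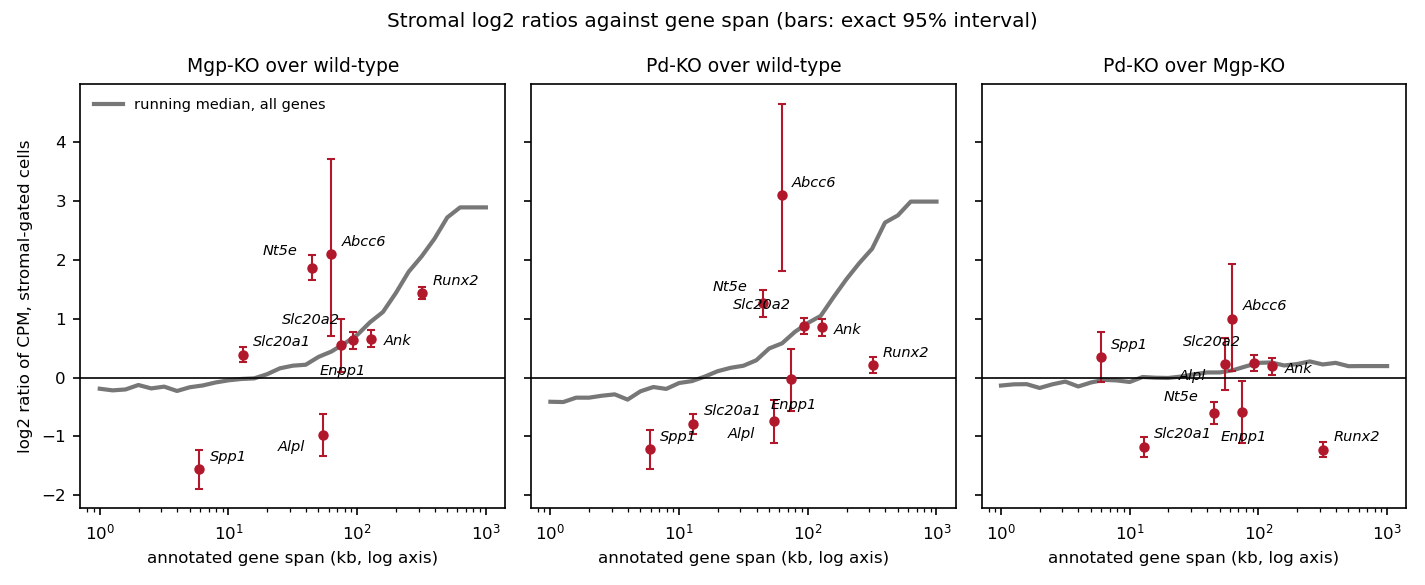
Log2 ratio of CPM in stromal cells (y axis) against annotated gene span in kb (log x axis) for the 3 comparisons. The line is the running median of all genes, points are the 9 members and bars the exact 95% interval. Runx2, which spans 318.8 kb, lies below the line in all 3 panels, and Nt5e lies above it in both comparisons with wild-type.

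Of the genes that supply pyrophosphate, Enpp1 (ENSMUSG00000037370, chr10:24637914-24712159, GRCm38) was scarce. Stromal cells held 86, 88 and 49 UMIs, or 0.765, 1.12 and 0.748 CPM. Smooth muscle cells held 7, 0 and 3 UMIs, and endothelial cells 8, 1 and 5. The stromal log2 ratios were 0.55 (0.10 to 0.99) in Mgp-KO and -0.03 (-0.57 to 0.49) in Pd-KO over wild-type, neither of them called. Genes of like span stood at 0.57 and 0.75 there.

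Ank (ENSMUSG00000022265, chr15:27466677-27594909), the membrane protein through which pyrophosphate leaves the cell, was measured at 15.3 CPM in wild-type, 37.2 CPM in Mgp-KO and 36.1 CPM in Pd-KO smooth muscle cells, from 75, 18 and 74 UMIs. Both mutants lay above wild-type, and the intervals of 12.03 to 19.2 CPM in wild-type, 22.1 to 58.8 CPM in Mgp-KO and 28.4 to 45.4 CPM in Pd-KO put neither mutant within reach of the wild-type interval. The log2 ratios were 1.28 (0.45 to 2.04) and 1.24 (0.76 to 1.72), both called, where genes of like span had running medians of 0.33 and 0.91. In endothelial cells Ank was 11.7, 21.3 and 25.9 CPM, and Pd-KO was called at 1.14 (0.63 to 1.66) where genes of like span stood at 0.94. In stromal cells it was 6.75, 10.7 and 12.2 CPM, with log2 ratios of 0.66 and 0.85 that were not called. Genes of like span stood higher there, at 0.92 and 1.08. Ank shares its locus with Otulin on the opposite strand.

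Abcc6 (ENSMUSG00000030834, chr7:45967555-46030302), the transporter whose loss causes pseudoxanthoma elasticum, was found in stromal cells only by few UMIs: 6 in wild-type, 18 in Mgp-KO and 30 in Pd-KO. These were 0.0534, 0.229 and 0.458 CPM. The log2 ratios over wild-type were 2.10 (0.70 to 3.72) and 3.10 (1.81 to 4.66), and Pd-KO over Mgp-KO stood at 1.00 (0.11 to 1.93), all called. Genes of like span stood at 0.44, 0.57 and 0.12 in these comparisons. In the 1896, 4636 and 3991 cells of the Dpp4 subgroup described below the UMIs were 3, 15 and 25, and there Pd-KO over Mgp-KO was 0.44 (-0.54 to 1.47) and not called. No UMI was found in smooth muscle or endothelial cells, which allows up to 0.612, 6.20 and 1.46 CPM in the first and 0.616, 3.75 and 0.995 CPM in the second.

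Alpl (ENSMUSG00000028766, chr4:137741733-137796384) had its highest level in endothelial cells among the 3 gates. Endothelial cells held 138, 26 and 42 UMIs, or 28.3, 32.5 and 13.9 CPM. The far more numerous stromal cells held 255, 91 and 89 UMIs, or 2.27, 1.16 and 1.36 CPM. Pd-KO was the low library, with log2 ratios of -1.03 (-1.56 to -0.52) over wild-type and -1.22 (-1.96 to -0.46) over Mgp-KO, both called. Mgp-KO over wild-type stood at 0.20 (-0.47 to 0.81). After each cell was thinned to 2000 UMIs, 6.13%, 5.88% and 2.87% of endothelial cells had an Alpl UMI, against 0.287% in wild-type and 0.651% in Pd-KO among smooth muscle cells. Of the 136 smooth muscle cells of Mgp-KO 0 had one, for which the exact interval reaches 2.68%. Epithelial-gated cells, outside the 3 gates, had thinned shares of 1.29%, 3.75% and 3.60%, the last from 4 of 111 cells. Without thinning the endothelial shares were 9.75%, 7.69% and 3.92%. Median depths of the endothelial and smooth muscle gates were alike within a library (6446 and 6587 UMIs in wild-type, 3185 and 3100.5 in Mgp-KO, 3874 and 4123 in Pd-KO). In stromal cells Alpl in Mgp-KO over wild-type fell just short of the 2-fold line, at -0.97 (-1.34 to -0.62), and Pd-KO stood at -0.74 (-1.11 to -0.39). Genes of like span had running medians of 0.42 and 0.52 there, so that Alpl stood at -1.40 and -1.26 relative to them. For the called endothelial ratios of Pd-KO over wild-type and over Mgp-KO, genes of like span stood at 0.38 and 0.17.

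The Alpl UMIs of endothelial cells came from few cells. They were found in 62 of 636, 17 of 221 and 26 of 663 cells. Compared with endothelial cells without an Alpl UMI, those cells were rich in arterial genes in every library: Gja4, a gap junction protein of arteries, was 734, 542 and 924 CPM against 96.9, 93.1 and 98.2 CPM, and Sema3g was 540, 644 and 467 CPM against 40.5, 105 and 56.0 CPM. The notch ligand Jag1, the elastic fibre gene Fbln5 and Stmn2 were also among the leading genes.

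Nt5e (ENSMUSG00000032420, chr9:88327197-88372092) was measured in 33, 4 and 12 endothelial cells, and 0 cells in any library held UMIs of both Alpl and Nt5e. The cells with Alpl and with Nt5e numbered 62 and 33 of 636, 17 and 4 of 221, and 26 and 12 of 663. The overlap of unrelated genes at such counts was not computed, so the 0 is not read as exclusion. The cells with Nt5e were rich in genes of venules: Ackr1, the chemokine-binding receptor of venules, was 720, 1964 and 1119 CPM against 66.8, 101 and 67.3 CPM in the other endothelial cells. Selp (P-selectin) was 376, 2554 and 470 CPM against 66.3, 180 and 48.2 CPM. The values for Mgp-KO rest on 4 cells. Both lists of leading genes were drawn after the values were seen and carry no test.

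A split of endothelial cells by an arterial panel (Gja4, Gja5, Sema3g, Hey1) and a venular panel (Ackr1, Selp, Sele, Vwf), also chosen after those lists, gave the following levels of the 2 enzymes. Alpl was 112, 128 and 69.1 CPM in the 147, 43 and 94 arterial cells, and 0 UMIs were found in the 83, 25 and 56 venular cells, where exact intervals reach 4.16, 41.6 and 11.3 CPM. Nt5e was 66.6, 45.1 and 61.0 CPM in venular cells, from 59, 4 and 20 UMIs, and 1, 0 and 0 UMIs were found in arterial cells. Since both panels hold leading genes of the cells with Alpl or Nt5e, the separation follows in part from how they were chosen. In Mgp-KO it rests on 22 Alpl and 4 Nt5e UMIs, and the exact interval for Nt5e in arterial cells reaches 21.5 CPM.

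**Figure D3:**
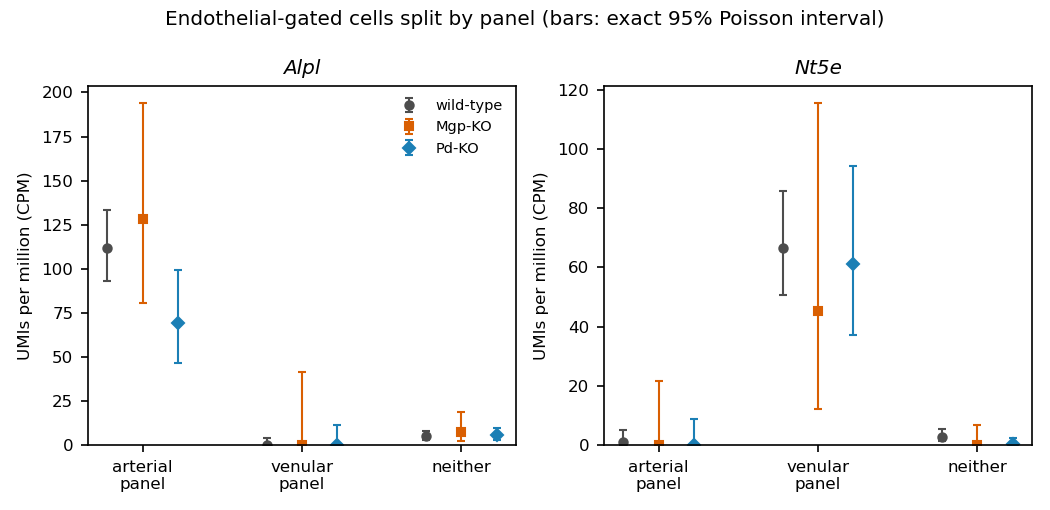
Alpl (left) and Nt5e (right) in CPM (y axis) in endothelial cells that met the arterial panel, the venular panel or neither (x axis), with 1 point per library and bars for the exact 95% Poisson interval. Alpl is at 69.1 to 128 CPM in arterial cells and at 0 in venular cells, and Nt5e is at 45.1 to 66.6 CPM in venular cells.

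The makeup of the endothelial gate was also compared between libraries, and its part in the levels of Alpl and Nt5e was not tested. Arterial cells made up 23.1% (19.9% to 26.6%), 19.5% (14.5% to 25.3%) and 14.2% (11.6% to 17.1%) of endothelial cells in wild-type, Mgp-KO and Pd-KO. The Mgp-KO interval overlapped both others, and those of wild-type and Pd-KO did not overlap. Venular cells made up 13.1% (10.5% to 15.9%), 11.3% (7.46% to 16.2%) and 8.45% (6.44% to 10.8%), with overlapping intervals. Median depths of the gate were 6446, 3185 and 3874 UMIs, and the part of depth in these shares was not tested. Over the whole gate Nt5e was 14.0, 5.00 and 6.96 CPM, and both mutants were called lower, at -1.48 (-3.40 to -0.06) and -1.004 (-1.78 to -0.28). Within venular cells the log2 ratio of Pd-KO was -0.13 (-0.94 to 0.63) and that of Mgp-KO -0.56 (-2.48 to 0.87). Within arterial cells Alpl of Pd-KO over wild-type was -0.70 (-1.33 to -0.10). None of these 3 reached the 2-fold line, and the Mgp-KO interval for Nt5e in venular cells, on 4 UMIs, still includes a 2-fold fall.

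In stromal cells Nt5e went the other way. It was 2.31 CPM in wild-type, 8.45 CPM in Mgp-KO and 5.54 CPM in Pd-KO, from 260, 665 and 363 UMIs. The log2 ratios were 1.87 (1.66 to 2.08) and 1.26 (1.03 to 1.49), both called, where genes of like span stood at 0.33 and 0.45. In male cells alone they were 1.89 and 1.41, and in female cells 1.81 and 0.58. The UMIs were spread over 204, 526 and 300 cells, with no more than 9 in a cell.

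Stromal cells were further sorted by panels for Dpp4+ progenitors (Dpp4, Pi16, Cd55, Sema3c), preadipocytes (Icam1, Bmper, Pparg, Col15a1), Aregs, the adipogenesis-regulating cells (F3, Gdf10, Fmo2, Clec11a), and cells with Col18a1, Sdc1, Nxn and Fgf10. A panel needed 80% of a cell's panel UMIs, which left 66.2%, 49.2% and 37.9% of stromal cells without a subgroup. Nt5e was 3.88, 16.3 and 6.98 CPM in the Dpp4 subgroup, above every other subgroup with more than 1 Nt5e UMI (the Col18a1 subgroup of Pd-KO stood at 7.51 CPM on 1 UMI), and was 1.80, 3.22 and 3.35 CPM in cells without a subgroup. Within the Dpp4 subgroup the log2 ratio for Mgp-KO against wild-type was 2.07 (1.76 to 2.39), and that of Pd-KO 0.85 (0.52 to 1.19), under the 2-fold line. The Dpp4 subgroup itself was 25.0%, 41.9% and 57.7% of stromal cells. Pd-KO had both a larger share of Dpp4 cells and a higher pooled stromal Nt5e level than wild-type. The part of the share in the pooled level was not tested.

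**Figure D4:**
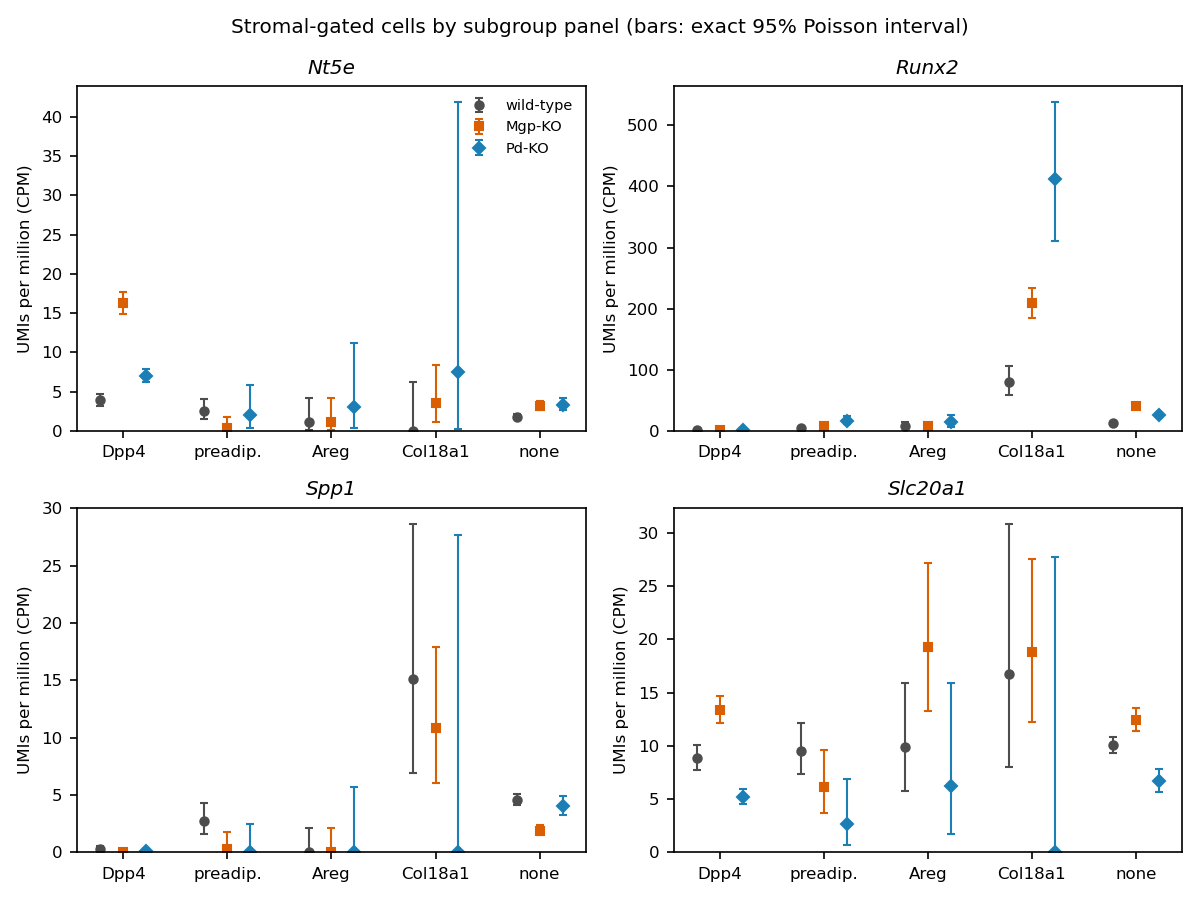
Nt5e, Runx2, Spp1 and Slc20a1 in CPM (y axis, scaled for each gene) in stromal subgroups (x axis), with 1 point per library and bars for the exact 95% Poisson interval. Nt5e is highest in the Dpp4 subgroup of Mgp-KO (16.3 CPM), and Runx2 is highest in the Col18a1 subgroup of every library (80.4, 209 and 413 CPM), which in Pd-KO held only 13 cells.

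The phosphate carrier Slc20a1 (PiT-1; ENSMUSG00000027397, chr2:129198764-129211616) was 9.78 CPM in wild-type, 12.8 CPM in Mgp-KO and 5.68 CPM in Pd-KO stromal cells. The 2 mutants lay on opposite sides of wild-type. Against wild-type the log2 ratios were 0.39 (0.27 to 0.52) and -0.78 (-0.96 to -0.61), neither called, and Pd-KO over Mgp-KO was called at -1.18 (-1.35 to -1.003). Genes of like span, 12.9 kb, had running medians of -0.01, -0.10 and -0.03 in the 3 comparisons. The ratio between the mutants was -1.36 (-1.61 to -1.12) within the Dpp4 subgroup, -0.89 in cells without a subgroup, -1.08 in female cells and -1.20 in male cells. In endothelial cells Slc20a1 was 21.6, 21.3 and 15.6 CPM, above both other gates in wild-type, and in smooth muscle cells 6.93, 8.27 and 8.79 CPM.

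Slc20a2 (PiT-2; ENSMUSG00000037656, chr8:22476788-22569612), whose loss causes brain calcification, was concentrated in smooth muscle cells, at 40.2, 70.3 and 83.5 CPM against 6.995, 10.8 and 12.9 CPM in stromal cells. After thinning, 8.45%, 16.2% and 15.2% of smooth muscle cells had a UMI, against 0.629%, 2.71% and 3.17% of endothelial cells. Without thinning, 23.5%, 22.1% and 29.1% of smooth muscle cells did. In Pd-KO over wild-type the smooth muscle log2 ratio was called at 1.06 (0.75 to 1.36), where genes of like span, 92.8 kb, stood at 0.81. In endothelial cells it was 4.11, 16.3 and 19.9 CPM from 20, 13 and 60 UMIs, and both mutants were called higher, at 1.98 (0.85 to 3.06) and 2.28 (1.53 to 3.08). Genes of like span stood at 0.38 and 0.71 there, so these endothelial ratios exceeded the length trend by 1.61 and 1.56. In female and male cells alone they were 2.03 and 2.03 in Mgp-KO, and 1.75 and 2.98 in Pd-KO. An intronic transcript on the same strand, Gm17491, lies inside Slc20a2.

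Smooth muscle cells were also split by Myh11, the smooth muscle myosin, into cells with at least 2 UMIs of it (640, 99 and 238 cells) and cells with 0 (34, 27 and 190 cells). Slc20a2 was 41.9, 53.3 and 77.8 CPM with Myh11, and 26.8, 128 and 93.4 CPM without it. In cells with Myh11 the log2 ratio for Pd-KO against wild-type was 0.89 (0.49 to 1.29).

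**Figure D5:**
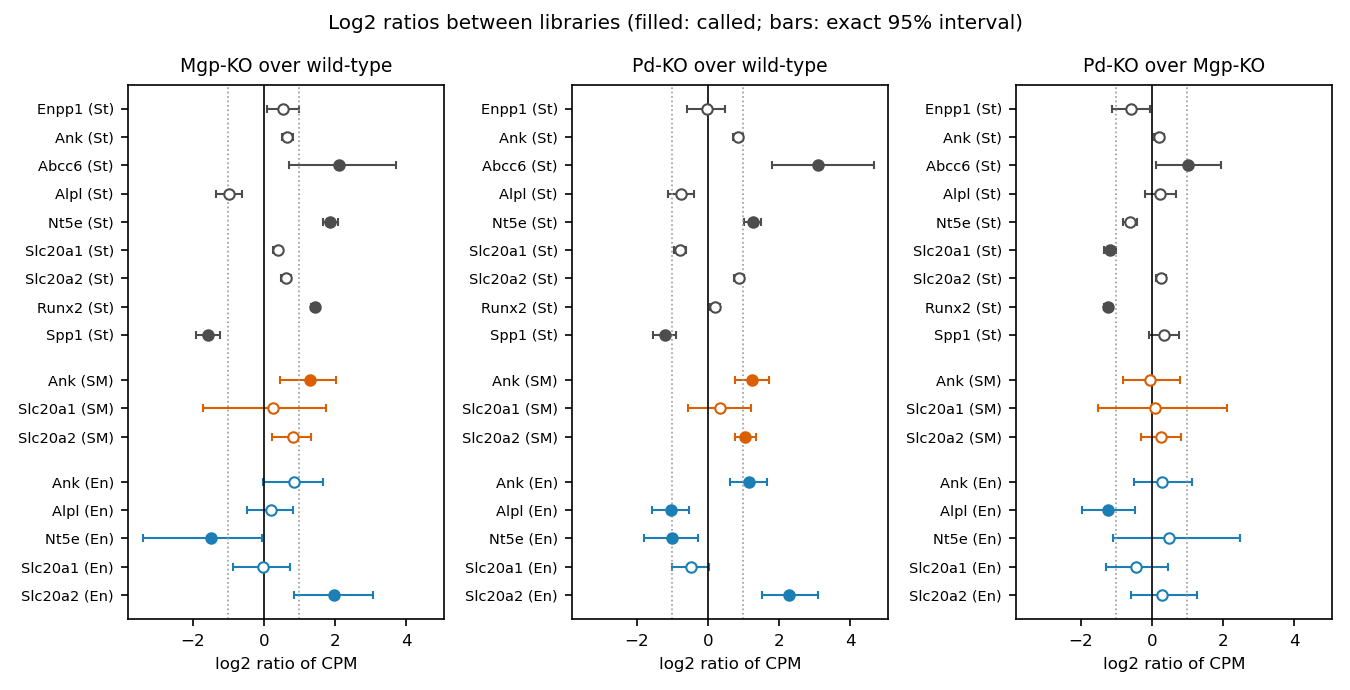
Log2 ratio of CPM (x axis) for every gene with at least 20 UMIs in the 2 libraries, in stromal (St), smooth muscle (SM) and endothelial (En) cells, for the 3 comparisons. Filled points were called, bars are exact 95% intervals and dotted lines mark a 2-fold change. Nt5e is higher in stromal and lower in endothelial cells of both mutants, and Slc20a2 is higher in endothelial cells of both.

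Runx2 (ENSMUSG00000039153, chr17:44495987-44814797) was highest in stromal cells among the 3 gates. Stromal cells held 1058, 2007 and 713 UMIs, or 9.42, 25.5 and 10.9 CPM. Smooth muscle cells held 6, 4 and 12 UMIs and endothelial cells 9, 1 and 3. After thinning, 1.65%, 3.45% and 1.76% of stromal cells had a UMI, against 0.472%, 0.452% and 0.302% of endothelial cells. Among the 310, 586 and 111 epithelial-gated cells, outside the 3 gates, the thinned shares were 0.645%, 1.71% and 1.80%, from 2, 10 and 2 cells. The unthinned stromal shares were 8.47%, 8.37% and 5.06% at median depths of 14194, 6491 and 9134 UMIs. Mgp-KO was called higher than wild-type, at 1.44 (1.33 to 1.55), and Pd-KO lower than Mgp-KO, at -1.23 (-1.35 to -1.10). Genes of like span had a running median of 2.05 in the first comparison, so that Runx2 stood at -0.61 relative to them there. In the second comparison, where both libraries share a header version, they stood at 0.22. Pd-KO over wild-type was 0.21 (0.07 to 0.35). Supt3 and 3 antisense transcripts lie on the opposite strand of the locus.

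The Runx2 UMIs were unevenly spread over cells. The 88, 227 and 72 stromal cells with 3 or more UMIs held 36.2%, 55.9% and 52.6% of it. Those cells were set apart from stromal cells without Runx2 by the matrix glycoprotein Tnc (260, 243 and 130 CPM against 4.70, 5.45 and 1.60 CPM), the retinoic acid-binding protein Crabp1 (430, 299 and 178 CPM against 13.8, 4.49 and 2.28 CPM), the endothelin receptor Ednra and the guidance cue Slit2. Entpd1 (CD39), which removes phosphate from extracellular ATP, was 143, 206 and 198 CPM in them against 8.83, 15.0 and 16.1 CPM. With a looser panel rule, 50% of panel UMIs, the Col18a1 subgroup held 60 of the 88, 165 of the 227 and 46 of the 72 cells. This comparison was made after the values were seen and is a description.

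The Runx2 level of the Col18a1 subgroup by that looser rule was 40.3, 159.6 and 138 CPM in 724, 833 and 267 cells, and that of the Dpp4 subgroup by the same rule 1.25, 2.32 and 1.36 CPM. Within the Col18a1 subgroup Pd-KO over Mgp-KO was -0.21 (-0.39 to -0.03), against -1.23 over all stromal cells. The subgroup made up 9.55%, 7.53% and 3.86% of stromal cells. Over all stromal cells Runx2 of Pd-KO over wild-type was 0.21, where genes of like span stood at 2.19, so that it was -1.98 relative to them. Without regard to span, by the 80% rule it was called higher among preadipocytes, at 1.75 (0.94 to 2.55), in the Col18a1 subgroup, at 2.36 (1.77 to 2.95), and in cells without a subgroup, at 1.06 (0.91 to 1.21). In the Dpp4 subgroup, where Runx2 was 0.723, 1.32 and 0.776 CPM, the ratio was 0.10 (-0.77 to 1.01). Cells with UMIs of both Crabp1 and Tnc numbered 86, 95 and 19. Runx2 was 77.5, 293 and 278 CPM in them against 8.23, 21.6 and 9.78 CPM in all other stromal cells. Since Crabp1 and Tnc were leading genes of the cells with 3 or more Runx2 UMIs, this separation follows in part from how they were chosen. Among the other stromal cells Pd-KO over Mgp-KO was -1.14 (-1.28 to -1.01). In cells assigned a sex, the pooled ratio was smaller: -0.94 in female and -0.05 in male cells, and for Mgp-KO over wild-type 1.28 in female and 0.56 in male cells.

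Spp1 (ENSMUSG00000029304, chr5:104435118-104441050) was found in stromal cells at 390, 93 and 98 UMIs, or 3.47, 1.18 and 1.496 CPM. No UMI was found in smooth muscle cells, which allows up to 0.612, 6.20 and 1.46 CPM, and 4, 0 and 0 in endothelial cells. Both mutants were called lower, at -1.56 (-1.90 to -1.23) and -1.21 (-1.55 to -0.89). A single wild-type cell held 171 of the 390 UMIs, 43.8% of them. That cell had 26175 UMIs in all, 87 of them on the stromal panel and 0 on the leukocyte panel. Without the richest cell of each library the ratios were -0.84 and -0.59 and neither was called. In male cells Pd-KO over wild-type was -0.01. Free RNA of the wild-type library held Spp1 at 56.6 CPM, against 1.27 and 0.897 CPM in the mutants. With free RNA taken off at an assumed 10% of each gate's UMIs, no Spp1 was left in wild-type stromal cells. The ratios over wild-type then had no finite value, with both mutants above wild-type, opposite to the reported ratios. The true share of free RNA in these cells was not tested.

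By stromal subgroup, Spp1 was 0.304, 0.0308 and 0.100 CPM in Dpp4 cells. By the looser rule it was 20.9, 8.33 and 4.21 CPM in the Col18a1 subgroup, which held 270 of the 390 wild-type UMIs. The wild-type cell with 171 UMIs was in it. Without the richest stromal cell of each library the subgroup stood at 7.68 CPM in wild-type, 7.40 CPM in Mgp-KO and 4.21 CPM in Pd-KO, and the log2 ratios over wild-type were -0.05 (-0.55 to 0.44) and -0.87 (-1.97 to 0.07), with intervals that include no change.

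Other genes of the same pathways were taken as 4 lists of 38 genes in all. In the list of pyrophosphate and adenosine enzymes, transporters and receptors, 8 of 9 were tested in stromal cells. In Mgp-KO over wild-type 1 was called higher and 0 lower, and in Pd-KO 2 higher and 0 lower, where 22.1% and 24.3% of all genes were called higher. Enpp3, a relative of Enpp1 that hydrolyses extracellular nucleotides, was 15.5, 54.2 and 38.0 CPM, with log2 ratios of 1.81 (1.73 to 1.89) and 1.29 (1.20 to 1.38) where genes of like span stood at 0.53 and 0.68. Adora2b, a low-affinity adenosine receptor, was 10.9, 21.2 and 24.8 CPM and was called in Pd-KO, at 1.19 (1.08 to 1.30). In endothelial cells Entpd2 was 16.6, 1.25 and 4.64 CPM from 81, 1 and 14 UMIs, called lower in both mutants. Entpd2 was much higher in stromal cells (210, 128 and 154 CPM), and the stromal markers Dcn (512, 106 and 89.9 CPM), Lum (134, 15.0 and 20.9 CPM) and Col1a1 (707, 126 and 421 CPM) were also lower in the endothelial gate of both mutants. Their part in the result was not tested. The list's median log2 ratio in stromal cells was 0.20 and 0.27.

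Among genes of phosphate and mineral hormones, 6 and 7 of 10 were tested in stromal cells, with 2 called higher in Mgp-KO and 1 in Pd-KO over wild-type and 0 lower in either (backgrounds for higher 22.1% and 24.3%). The gene called in Pd-KO was Kl, at 0.107, 0.0508 and 0.305 CPM from only 12, 4 and 20 UMIs. Fgf23, the hormone that lowers blood phosphate, was 0.116 CPM in wild-type, 1.33 CPM in Mgp-KO and 0.137 CPM in Pd-KO, from 13, 105 and 9 UMIs. Mgp-KO stood above both other libraries, at 3.53 (2.69 to 4.48) over wild-type, and its UMIs came from 49 cells of which 1 held 14. Xpr1, the phosphate exporter, was 17.0, 34.2 and 32.6 CPM, and its ratio of 1.00 in Mgp-KO was close to that of genes of like span (0.92). In smooth muscle cells 3 of 4 tested were called higher in Pd-KO over wild-type, against 20.0% of all genes: Xpr1 at 2.15 against a running median of 1.00, the parathyroid hormone receptor Pth1r at 1.57 against 0.18, and Dmp1 at 1.52 on 10 wild-type and 12 Pd-KO UMIs. In the same gate Kcnj8, a pericyte marker, was 70.2 CPM in wild-type and 452 CPM in Pd-KO, Acta2 10536 and 4952 CPM, and Myh11 2536 and 1377 CPM, and the part of this shift in the 3 ratios was not tested.

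Among inhibitors of mineral other than Mgp, 4 of 6 were tested in stromal cells. In Mgp-KO over wild-type 0 were called and in Pd-KO 2 were called higher, with the same backgrounds of 22.1% and 24.3%. Tnfrsf11b (osteoprotegerin) was 3.25, 4.72 and 11.3 CPM, at 1.80 (1.61 to 1.98) in Pd-KO where genes of like span stood at 0.12, and at 1.26 over Mgp-KO. Fbn1 (fibrillin-1) was 1216, 1325 and 2871 CPM, at 1.24 over wild-type where genes of like span stood at 1.76, and at 1.12 over Mgp-KO where they stood at 0.27. In endothelial cells Tnfrsf11b was lower in Pd-KO, at -1.63 (-2.54 to -0.82).

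In the list for bone and cartilage differentiation, the genes called higher in stromal cells of Pd-KO over wild-type included Dlx5 and Mef2c. Dlx5, a homeobox gene upstream of bone formation, was 0.899, 1.35 and 2.24 CPM, at 1.32 (0.94 to 1.70) in Pd-KO. Mef2c, a transcription factor of muscle and cartilage, was 39.7, 47.6 and 88.1 CPM and was called at 1.15 (1.09 to 1.21), where genes of like span stood higher, at 1.47. The genes that define mature bone or cartilage cells were at or near 0 in stromal cells of every library: Sp7 had 6, 4 and 2 UMIs, Col2a1 10, 4 and 4, Bglap 13, 3 and 10, and Ibsp 0 in all 3.

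Genes with a like pattern were sought over 24 groups of cells, which share libraries and depth, by Pearson's r of log2 levels, as a description. The closest were Map4 for Ank (r = 0.90), Zfp979 for Alpl (0.87), Trim37 for Slc20a1 (0.77), R3hdm2 for Slc20a2 (0.92), Hectd2 for Runx2 (0.85) and Zfp536 for Spp1 (0.86). Enpp1, Abcc6 and Nt5e stayed under 20 CPM in every group and were left out.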

How the data were processed

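Stromal vascular cells of 3 mouse genotypes were profiled by single-cell RNA sequencing, 1 library each. The deposited matrices were unfiltered and hold counts of UMIs, not normalized, for 32285 genes. The headers name Cell Ranger 4 for wild-type and 7.1.0 for both mutants, while the submitters' processing notes name 6.1.1 and GRCm39 and the study's methods name mm10. Total UMIs were 184102026, 93212243 and 83942865 in wild-type, Mgp-KO and Pd-KO.

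Barcodes with at least 2000 UMIs and at most 10% mitochondrial UMIs were kept, without a doublet caller. A cell was gated when 1 panel had at least 3 UMIs from at least 2 genes and 80% of all panel UMIs, which also leaves out cells that carry markers of several types. UMIs were summed per gate and library and divided by the sum of all genes. Intervals are exact Poisson for levels, Clopper-Pearson for shares and conditional binomial for ratios, at 95%. They cover counting error only, since UMIs of 1 cell are not independent. Running medians were taken over 200 genes nearest in annotated span (GENCODE M21, GRCm38, 99.6% of genes matched). Shares were compared after thinning each cell to 2000 UMIs. Sex was read from Xist and Y-linked UMIs. Scripts used Python 3.11.15, numpy 2.4.6, scipy 1.17.1 and pandas 2.3.3 and were tested on simulated data.

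By rule, the named genes were the 9 members, Mgp, list genes called in a comparison and, per member reaching 20 CPM, the genes with the highest correlation. Outside the rule, panel and check markers and the leading genes of cells with Alpl, Nt5e or Runx2 were named. So were the bone and cartilage markers near 0, with Acan and Sox9 beside them. The leading genes and the bone and cartilage markers were named after their values were seen. Not every called list gene is given its values. Counts over the bone and cartilage list are not reported here. The members, panels and lists were chosen with earlier results of these data known. The endothelial split, the leading genes and the Crabp1 and Tnc cells were chosen after the values were seen. The alternatives tried numbered 12 planned and 3 added.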

Additional observations from a re-analysis of the deposited data

Results flagged for a closer look

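Nt5e moved in opposite directions in stromal and endothelial cells. Against wild-type, the log2 ratio in Mgp-KO was 1.87 in stromal and -1.48 in endothelial cells, and that of Pd-KO was 1.26 and -1.004. The endothelial value of Mgp-KO rests on 4 UMIs in that library. Within venular cells the log2 ratios were -0.56 (-2.48 to 0.87) in Mgp-KO and -0.13 (-0.94 to 0.63) in Pd-KO. With 1 library per genotype the difference between the cell types was not tested.

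Several levels outside the 3 gates stood above the gated ones. Spp1 was 55.5 CPM in wild-type and 149.9 CPM in Pd-KO Schwann-gated cells (113 and 44 cells), and 56.6 CPM in free RNA of the wild-type library. Ank was 38.6 CPM in wild-type Schwann-gated cells. Enpp1 was 5.55, 29.9 and 9.43 CPM in cells that met no gate in wild-type, Mgp-KO and Pd-KO. Of its 81, 116 and 41 UMIs there, 50, 93 and 22 lay in the 45, 109 and 20 cells with at least 3 UMIs on both the epithelial and the smooth muscle panel. Runx2 of Pd-KO was 19.4 CPM in free RNA and 17.9 CPM in cells that met no gate.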

How the results depend on the processing

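The number of pairs of gene and gate called in Mgp-KO over wild-type was 7, and became 11 with free RNA taken off and 4 in male cells. In Pd-KO over wild-type it was 9, and 4 in female cells. In Pd-KO over Mgp-KO it was 4, and 2 in female cells. Every other alternative left these counts within 1.5 times, and the number of genes with the same highest gate, 8, ranged from 6 to 8. Sex-restricted fits hold fewer cells. Of 608 recomputed ratios with a finite value, 514 stayed within the interval of the reported value and the others left it. Spp1 in stromal cells of both mutants over wild-type had no finite ratio with free RNA taken off. These ratios are therefore not among the 608. Both are then called as higher than wild-type, opposite to the reported calls, and that of Mgp-KO is counted among the 11 calls. The sign changed in 47, of which 9 had a reported interval that excluded 0, 8 of them with the span trend taken off (among them Ank and Slc20a2 in stromal cells of both mutants over wild-type). Only 1 of these 47 had been called: Runx2 in stromal cells of Mgp-KO over wild-type. It was 1.44, and -0.61 once the running median of 2.05 for genes of like span was taken off. Among subgroups, Runx2 of Pd-KO over Mgp-KO in preadipocytes was 1.05, and -0.39 under the 50% panel rule. The source of the span trend and the cause of the reversal in preadipocytes were not tested. Leaving out the richest cell, over all stromal cells or in the Col18a1 subgroup, and the 50% rule were chosen after seeing the data. No paired analysis was possible because each genotype had 1 library. Abcc6 in stromal cells and most genes in the 136 smooth muscle cells of Mgp-KO were limited by depth.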
